A study of Mus musculus with 12 samples.

Results

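The presence of adipose-derived stromal cells (ASC) in the implant was the factor examined here, averaged over tumors of mice drinking water without and with inorganic arsenic (iAs). All 12 tumors of the series entered a single model, and the main effect of ASC was the mean of the ASC and ASC_As300 groups (6 tumors) minus the mean of the Control and As300 groups (6 tumors). Of 55401 genes in the count table, 20818 passed a filter on low counts and were tested. The rule used the groups and no measured value, and genes were examined in both directions.

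TC2Ras is a Ras-driven mouse prostate cancer cell line. Each mouse received 125000 TC2Ras cells under the skin of both flanks, alone or mixed with 1% ASC, which were primary cells from male transgenic mice that carry a green fluorescent protein (GFP). After the implant the mice drank water holding 0 or 300 ppb iAs, and the tumors were collected at day 21, those of the left and right flank of a mouse being combined. The groups were Control (0 ppb iAs, no ASC), ASC (0 ppb iAs, 1% ASC), As300 (300 ppb iAs, no ASC) and ASC_As300 (300 ppb iAs, 1% ASC), with 3 tumors each. All mice shared the low-arsenic diet that preceded the implant, and the host strain, sex and age were not given in the sources used here. The labels name the cell type of every sample as adipose-derived stromal cells, whereas the design text describes whole tumors. The transcripts were those of a mixed tissue, and the samples are treated here as tumors. The adipose stromal marker list, of 19 genes, summed to 1180 to 1507 CPM, the read counts scaled to the depth of each library. The GFP transgene was not analysed here, so transcripts of the implanted ASC and of the host could not be told apart.

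Interferon gamma (IFNγ) is a cytokine made mainly by T cells and natural killer (NK) cells. It binds a receptor found on most cells and, through the kinases JAK1 and JAK2, leads to the induction of the transcription factor IRF1. Known targets include the guanylate-binding proteins and immunity-related GTPases, which attack vacuoles that hold pathogens, the machinery that cuts and loads peptides onto MHC molecules, chemokines that attract T cells, and the checkpoint ligand PD-L1.

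Total counts ran from 39157647 to 55168642 per tumor, and did not differ with ASC (mean 47834900 with ASC against 48109131 without, exact permutation test within iAs level, two-sided p = 0.925, 400 arrangements, smallest possible p = 0.005). The share of counts in the most abundant gene, CT010467.1, was 4.22% to 11.4% with ASC and 3.23% to 10.8% without (p = 0.88, same exact test). A total of 3 tumors without ASC stood apart by transcripts of other tissues. Skeletal muscle genes summed to 2860 CPM in Control replicate 2 and 2547 CPM in As300 replicate 1, against 9.33 to 539.9 CPM in the other 10 tumors. B cell genes summed to 403.7 CPM in Control replicate 1, against 22.01 to 58.3 CPM in the other 11 tumors. Results were also computed without these 3 tumors, and p-values measure the spread among these tumors. A tumor with ASC, ASC replicate 2, had the highest sum of adipocyte genes, at 3042 CPM. That sum was 781.3 to 885.1 CPM in the other tumors with ASC and 725.8 to 2052 CPM without ASC. ASC replicate 2 was not among the 3 tumors left out.

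Tumors with ASC differed from tumors without ASC mainly by a set of genes that rose. With an adjusted p below 0.05 and a fold change of at least 1.5, 283 genes were called higher (1.36% of those tested) and 18 lower (0.0865%) by edgeR's quasi-likelihood test. The called genes that rose did so by a median log2 fold change of 1.14, with a range of 0.59 to 6.12. Of these, 178 rose at least 2-fold, 55 at least 4-fold and 16 at least 8-fold. In 239 of the 283 genes every tumor with ASC lay above every tumor without, a separation seen in 348 genes overall (1.67%). In 14 of the 18 lower genes every tumor with ASC lay below every tumor without, as in 45 genes overall (0.216%). The median over all genes tested was -0.0042. At an unadjusted p below 0.05, edgeR gave 1443 higher and 825 lower genes. These are bulk measurements, in which fewer cells of a type and less RNA per cell cannot be told apart. Without the 3 tumors that stood apart, 245 of the 283 higher and 7 of the 18 lower genes were called again. Leaving out each tumor in turn, 209 and 7 genes were called in all 12 fits.

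**Figure D1:**
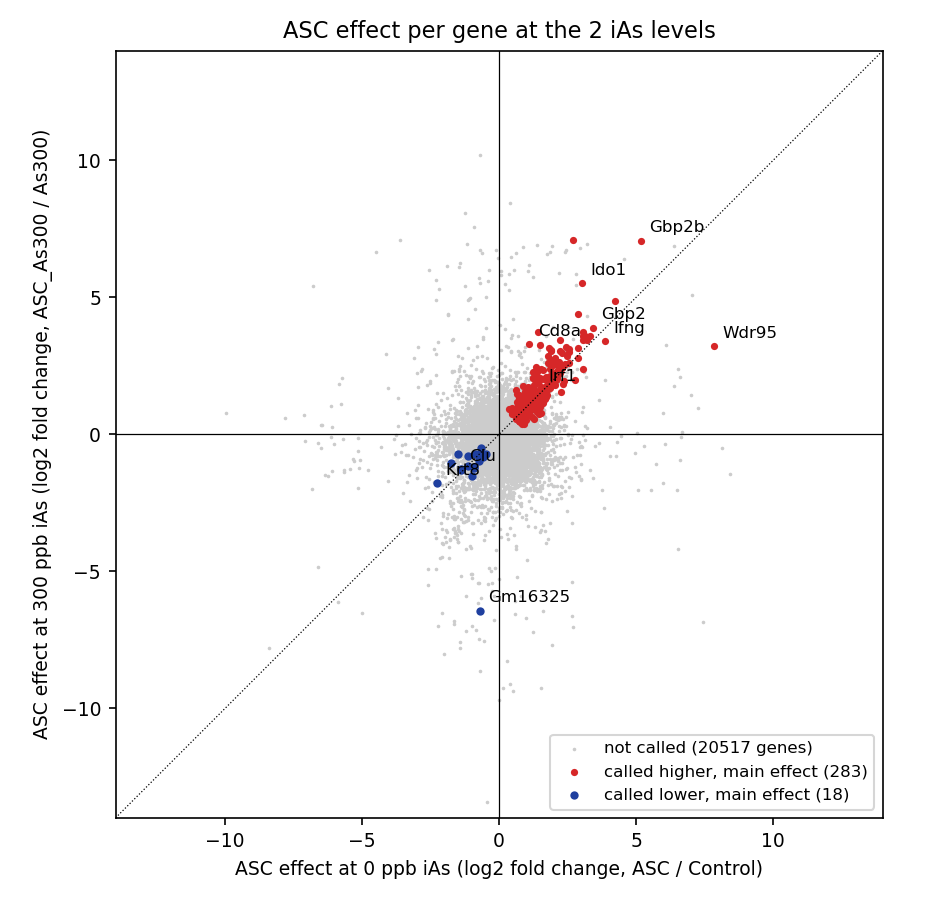
Log2 fold change of each tested gene for ASC against Control (horizontal axis, 0 ppb iAs) and for ASC_As300 against As300 (vertical axis, 300 ppb iAs), with equal values on the dotted line. The 283 genes called higher for the main effect lie above 0 on both axes and the 18 called lower below 0 on both. They were selected on the mean of both effects, which favors a shared sign. The genes not called spread around 0.

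The ligand itself was scarce without ASC. Ifng, which encodes IFNγ, measured 0.103, 0.2303 and 0.0868 CPM in the 3 Control tumors, 0.3002, 0 and 0.406 CPM in As300, 2.31, 1.72 and 2.24 CPM in ASC and 1.86, 2.21 and 3.52 CPM in ASC_As300. Every tumor with ASC exceeded every tumor without, where the gene had 0 to 23 counts against 64 to 178 counts. The fitted log2 fold change was 3.63 ± 0.57 (SE, edgeR adjusted p = 0.00385), a value that rests on these low counts. Irf1, a transcription factor that IFNγ induces, measured 50.7, 53.3 and 68.1 CPM (lowest, median and highest of the 6 tumors without ASC) and 143, 169 and 188 CPM in the 6 tumors with ASC. The groups did not overlap, and Irf1 rose 2.97-fold (log2 1.57 ± 0.09, adjusted p = 1.37e-06).

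Of the 21 tested genes of IFNγ production and signaling, 10 were called higher and none lower, with a median log2 fold change of 0.79. Also called higher were Nlrc5, the transactivator of MHC class I genes (log2 2.32), Stat2 (1.16) and Irf9 (0.69), partners in type I interferon signaling, Socs1, a feedback inhibitor of JAK kinases (1.10), Il18bp, a decoy for interleukin 18 (1.49), Il12rb1, a subunit of the interleukin 12 receptor (1.86), and Irf8, a factor of myeloid cells (0.69). The receptor subunits and the kinase gene Jak2 did not pass the test. Ifngr1 gave a log2 fold change of 0.06 ± 0.06, Ifngr2 0.07 ± 0.06 and Jak2 0.20 ± 0.09. Irf8 lay near the threshold (adjusted p = 0.0477), and was called in only 2 of the 12 fits that left out a tumor.

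**Figure D2:**
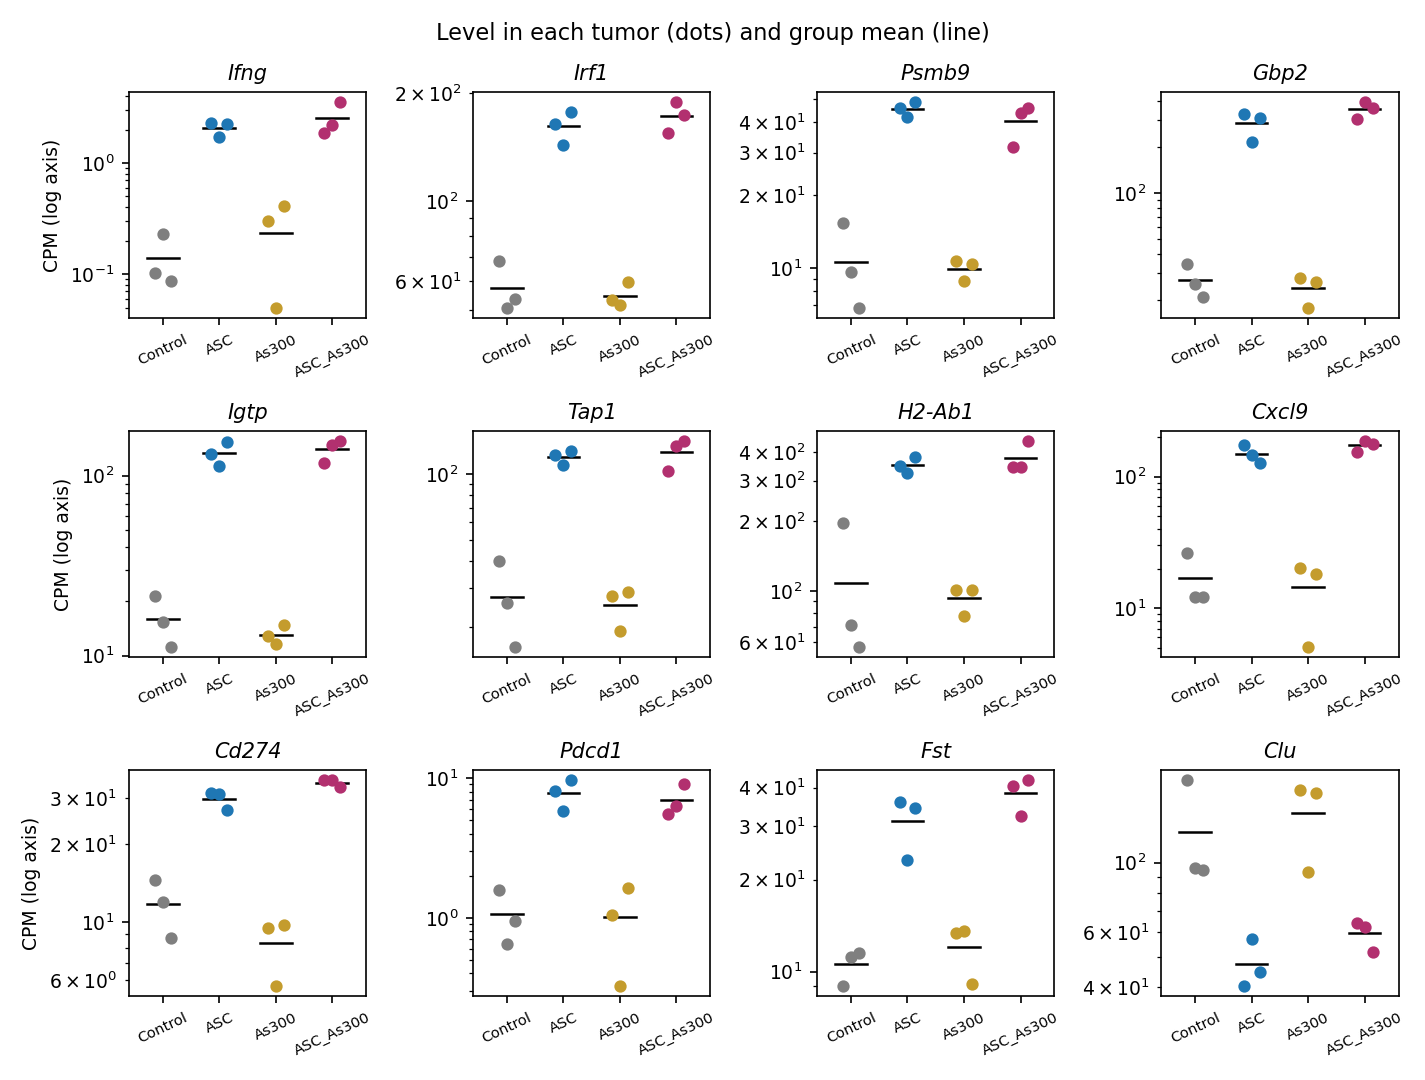
CPM (log axis) of 12 genes in each of the 12 tumors, as dots by group, with the group mean as a line and a tumor without counts drawn at 0.05 CPM. In each panel except that of Clu all 6 tumors with ASC lie above all 6 without, whatever the iAs level, and in Clu they lie below.

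Among the gene lists, the interferon-inducible GTPases had the largest medians. Of 11 tested guanylate-binding proteins 10 were called higher (median log2 fold change 2.41), and of 13 tested immunity-related GTPases 11 were called higher (median 2.67). Gbp2 gave the smallest p of all genes, and measured 17.9, 25.8 and 34.6 CPM without ASC against 217, 322 and 395 CPM with ASC. The lowest tumor with ASC thus lay far above the highest without, for a 12.6-fold rise (log2 3.65 ± 0.17, adjusted p = 3.74e-07). Igtp, which encodes IRGM3, measured 11.2, 13.8 and 21.3 CPM without ASC and 114, 141 and 156 CPM with ASC. It rose 9.46-fold with no overlap (log2 3.24 ± 0.15, adjusted p = 3.74e-07). Gbp3 (log2 2.83 ± 0.15) and Irgm2 (2.78 ± 0.15) followed, and further down by p came Irgm1 (2.28), Iigp1 (3.40), Tgtp1 (3.32) and Gbp7 (2.30), all without overlap. Gbp2b, also known as Gbp1, had 0 to 27 counts in tumors without ASC and 260 to 1109 with ASC. Its fitted log2 fold change of 6.12 ± 0.50 was the largest among the called genes. Gbp11 (1.81, adjusted p = 0.222) did not pass. These families hold close copies in the genome, such as Tgtp1 and Tgtp2, between which the assignment of reads is uncertain.

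The start regions of the 5 genes named first by p are shown because they carry the sequence patterns of this pathway, which was a condition for printing them. Each window spans 250 bases before to 50 after the annotated start (RefSeq, build GRCm38.p6), is written 5′ to 3′ on the strand of the gene, and was searched on both strands. Capitals mark the gamma-activated site pattern, GAS (TTCNNNGAA), and the core of the interferon-stimulated response element, ISRE (GAAA, any 2 bases, then GAAA), which IRF factors bind. A match is a string of letters, not a shown binding site.
Gbp2, chr3:142620413-142620712, plus strand: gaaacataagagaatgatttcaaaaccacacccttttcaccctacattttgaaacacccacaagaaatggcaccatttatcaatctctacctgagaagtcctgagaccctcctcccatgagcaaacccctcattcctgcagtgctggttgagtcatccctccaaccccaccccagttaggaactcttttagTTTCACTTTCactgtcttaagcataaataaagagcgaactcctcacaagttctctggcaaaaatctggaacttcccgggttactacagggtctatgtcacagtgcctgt
Igtp, chr11:58199306-58199605, plus strand: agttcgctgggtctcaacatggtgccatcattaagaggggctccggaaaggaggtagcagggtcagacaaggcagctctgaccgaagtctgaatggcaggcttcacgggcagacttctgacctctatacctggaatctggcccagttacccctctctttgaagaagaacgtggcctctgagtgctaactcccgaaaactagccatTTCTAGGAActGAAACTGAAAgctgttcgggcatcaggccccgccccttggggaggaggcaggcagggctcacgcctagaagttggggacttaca
Gbp3, chr3:142559794-142560093, plus strand: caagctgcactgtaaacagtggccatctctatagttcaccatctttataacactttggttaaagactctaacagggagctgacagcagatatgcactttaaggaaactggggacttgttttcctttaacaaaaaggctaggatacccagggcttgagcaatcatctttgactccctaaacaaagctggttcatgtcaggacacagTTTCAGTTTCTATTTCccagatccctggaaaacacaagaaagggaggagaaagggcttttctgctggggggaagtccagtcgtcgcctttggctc
Irgm2, chr11:58214727-58215026, plus strand: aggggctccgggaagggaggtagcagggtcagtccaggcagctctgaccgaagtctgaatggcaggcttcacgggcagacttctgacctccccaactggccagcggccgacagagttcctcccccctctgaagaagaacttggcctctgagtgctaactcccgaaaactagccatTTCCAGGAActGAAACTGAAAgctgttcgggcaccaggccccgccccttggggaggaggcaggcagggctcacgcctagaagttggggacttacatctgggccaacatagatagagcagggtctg
Irf1, chr11:53769764-53770063, plus strand: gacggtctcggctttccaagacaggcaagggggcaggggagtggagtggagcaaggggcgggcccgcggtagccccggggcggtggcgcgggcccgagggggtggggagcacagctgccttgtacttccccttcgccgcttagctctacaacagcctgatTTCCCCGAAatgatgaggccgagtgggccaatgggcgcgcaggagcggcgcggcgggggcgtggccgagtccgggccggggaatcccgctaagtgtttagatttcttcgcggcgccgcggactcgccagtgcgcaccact

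The ISRE letters begin 59 bases before the start in Gbp2, 34 in Igtp and 64 in Irgm2, and in Gbp3 overlapping matches begin 45 and 39 bases before it. The GAS letters begin 45 bases before the start in Igtp, 75 in Irgm2 and 90 in Irf1. Of the 283 genes called higher, 203 had a promoter entry. The ISRE pattern was present in 62 of these (30.5%), against 3.89% of the 12904 tested genes with an entry. The GAS pattern was present in 36 (17.7%), against 8.4% of all, and either pattern in 84 (41.4%), against 11.7%. Among the 15 lower genes with an entry, 0 held either pattern in this window. Restricted to genes with a single start in the table, the ISRE share was 31.0% of 168 higher genes, against 3.25% of 10375. In the families, all 5 guanylate-binding protein genes with an entry and 8 of 10 immunity-related GTPases held the ISRE letters, whereas 0 of 8 MHC class II genes did.

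**Figure D3:**
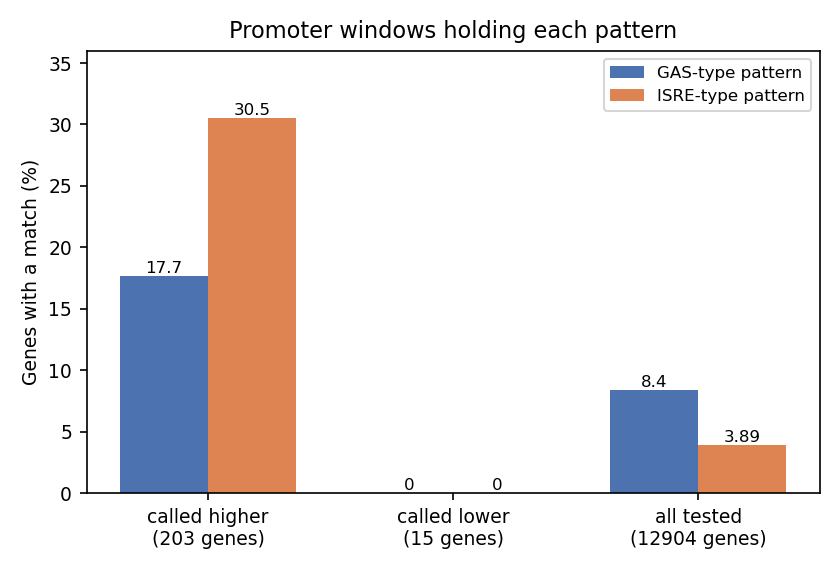
Share of genes (%) whose promoter window held the GAS pattern or the ISRE pattern on either strand, for genes called higher, genes called lower and all tested genes with an entry. The ISRE pattern stood in 30.5% of the 203 higher genes and 3.89% of all 12904 genes, and neither pattern in the 15 lower genes.

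Genes that process and present antigen rose as well. Of 21 tested genes of MHC class I and peptide loading, 18 were called higher (median log2 fold change 1.08). The inducible catalytic subunits of the immunoproteasome all rose, Psmb8 3.56-fold (adjusted p = 6.38e-05), Psmb9 4.17-fold (adjusted p = 1.92e-05) and Psmb10 3.03-fold (adjusted p = 1.01e-05). By contrast, 0 of the 14 constitutive proteasome subunits were called by edgeR or DESeq2, at log2 fold changes of -0.03 to 0.16, with 1 at an unadjusted p below 0.05. Tap1, which pumps peptides into the endoplasmic reticulum, measured 16.3, 26.8 and 39.95 CPM without ASC and 104, 124 and 141 CPM with ASC. The groups did not overlap, and Tap1 rose 4.67-fold (log2 2.22 ± 0.19, adjusted p = 2.36e-05). Tapbp, the tapasin that holds MHC class I near that pump, rose 2.18-fold (adjusted p = 9.81e-06), Erap1, the peptidase that trims the peptides, 2.11-fold (adjusted p = 8.47e-06), and B2m, the light chain of class I, 1.94-fold (adjusted p = 1.53e-05). The class I heavy chains H2-K1 and H2-D1 rose 2.54-fold (adjusted p = 0.000221) and 2.11-fold (adjusted p = 7.4e-05), with the reservation that class I genes are close copies. B2m was already abundant, at 515, 609 and 689 CPM without ASC and 1078, 1163 and 1292 CPM with ASC.

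Of 11 tested MHC class II genes, 7 were higher with ASC (median log2 fold change 1.23, range -0.85 to 1.90). The 6 called higher were H2-Aa, H2-Ab1, H2-Eb1, Cd74, H2-DMa and H2-DMb1, with log2 fold changes of 1.23 to 1.90. All 11 were higher without the 3 tumors that stood apart (median 1.81), a fit with 1 Control tumor. H2-Ab1, a class II beta chain, measured 197, 70.99 and 57.4 CPM in the 3 Control tumors, 101, 77.8 and 101 CPM in As300, 346, 325 and 379.9 CPM in ASC and 346, 343 and 445 CPM in ASC_As300. The highest value without ASC was that of Control replicate 1, the tumor with B cell transcripts, and it still lay below every tumor with ASC (log2 1.86 ± 0.25, adjusted p = 0.00115). Ciita, the master regulator of class II, gave 0.94 ± 0.47 (adjusted p = 0.52) and was not called. Of 10 genes of ADP-ribosylation, 6 were called higher. Dtx3l and Parp9, which act as a pair, rose 2.67-fold (adjusted p = 2.54e-06) and 2.49-fold (adjusted p = 4.55e-06), whereas the DNA repair enzyme Parp1 gave a log2 fold change of 0.12 ± 0.07.

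Genes best known as targets of type I interferons, IFNα and IFNβ, also rose. Of 34 tested, 25 were called higher and 0 lower, with a median log2 fold change of 1.11 and a range of 0.49 to 2.18. Zbp1, a sensor of Z-form nucleic acids, led them, at 10.1, 13.3 and 18.1 CPM without ASC and 44.97, 67.4 and 72.9 CPM with ASC. It rose 4.53-fold with no overlap (log2 2.18 ± 0.15, adjusted p = 8.06e-06). Log2 medians of this list were 1.25 at 0 ppb and 0.94 at 300 ppb iAs. Xaf1, an antagonist of inhibitors of apoptosis, rose 3.05-fold, Ifi35 1.900-fold and Samhd1, which depletes nucleotides, 1.72-fold. Isg15, a ubiquitin-like protein, measured 13.3, 14.9 and 23.3 CPM without ASC and 22.5, 34.95 and 53.1 CPM with ASC, where the highest tumor without lay just above the lowest with ASC (log2 1.15 ± 0.19, adjusted p = 0.00452). Without the 3 tumors that stood apart Isg15 was no longer called. Irf7, the factor that amplifies type I interferon production (log2 1.23 ± 0.20), Ifih1 (0.83 ± 0.12) and Ddx58 (0.69 ± 0.14), the sensors MDA5 and RIG-I of viral RNA, and Mx1, an antiviral GTPase (1.13 ± 0.23), rose without overlap. Ddx58 and Mx1 were each called in 6 of the 12 fits that left out a tumor, and Ddx58 not without the 3 tumors. Rsad2, the antiviral enzyme viperin, passed narrowly (log2 0.92 ± 0.21, adjusted p = 0.0466), and in only 2 of the 12 fits that left out a tumor.

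**Figure D4:**
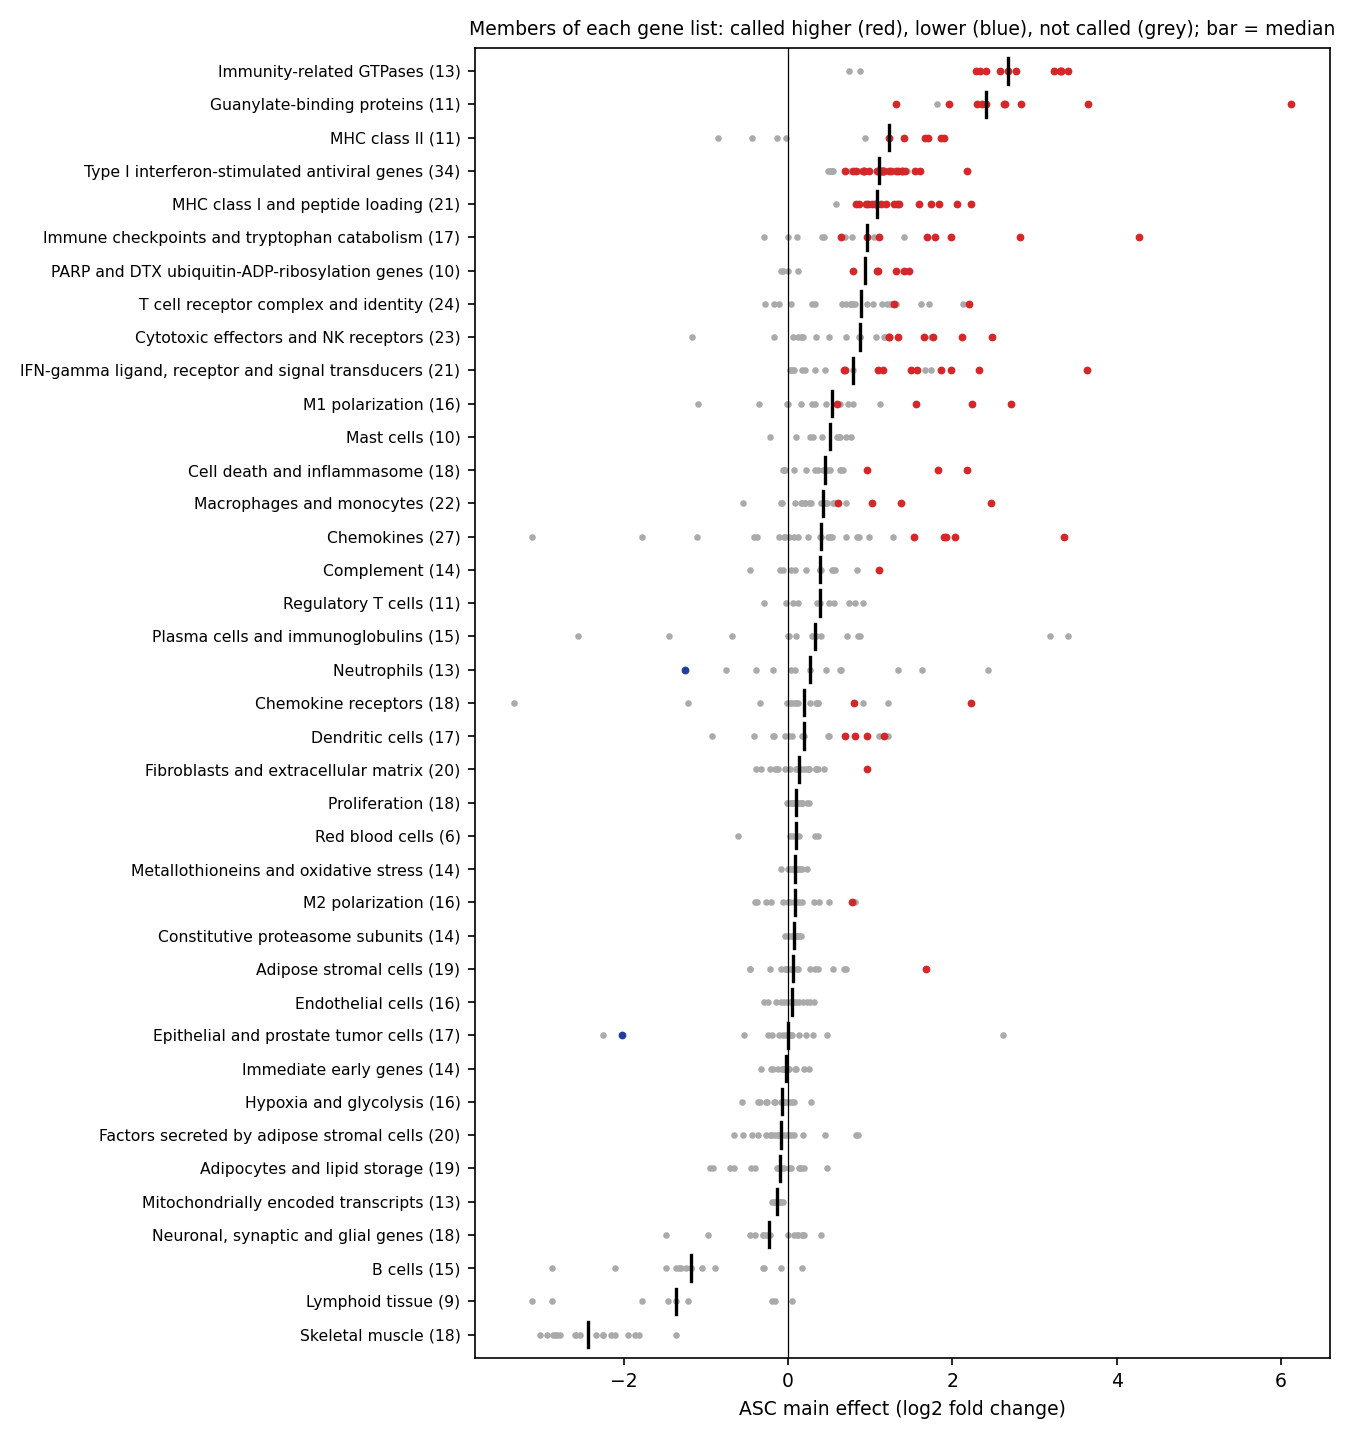
Log2 fold change of the ASC main effect for each tested member of 39 gene lists, ordered by the list median (bar), with the number of members tested in brackets. The 2 GTPase families lie farthest to the right, at medians of 2.67 and 2.41, and the skeletal muscle genes farthest to the left at -2.43, a median that was 3.01 without the 3 tumors that stood apart.

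Of the chemokines that recruit activated T cells through the receptor CXCR3, Cxcl9 and Cxcl10 rose and Cxcl11 was not called (1.28 ± 0.67, adjusted p = 0.537). Cxcl9 measured 5.11, 15.2 and 26.5 CPM without ASC and 127, 164 and 186 CPM with ASC. The groups did not overlap, and Cxcl9 rose 10.2-fold (log2 3.36 ± 0.31, adjusted p = 4.62e-05). Cxcl10 rose 3.79-fold (log2 1.92 ± 0.16, adjusted p = 1.6e-05), again with no overlap. Ccl3 (log2 2.03 ± 0.30) and Ccl4 (1.90 ± 0.28), both inflammatory chemokines, and Ccl8 (1.53), a monocyte attractant, were the other members called among 27 tested chemokines, which had a median of 0.40. Of 18 chemokine receptors, 2 were called, among them Cxcr6, a marker of resident T cells (2.22). Cxcr3 itself gave 0.34 ± 0.26 (adjusted p = 0.714).

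Lymphocyte markers were higher in most cases but seldom called. Of 24 genes of the T cell receptor complex, 21 were higher with ASC (median log2 fold change 0.89), but only Cd8a and Zap70 were called. Cd8a, the alpha chain of the CD8 coreceptor, measured 15.8, 2.32 and 1.74 CPM in Control, 1.45, 0.9404 and 2.14 CPM in As300, 14.9, 10.8 and 16.9 CPM in ASC and 14.9, 8.67 and 20.8 CPM in ASC_As300. Control replicate 1, the tumor with the B cell transcripts, overlapped the tumors with ASC, while the other 5 tumors without ASC lay below all 6 (log2 2.20 ± 0.49, adjusted p = 0.0381). Cd8a and Zap70 were each called in 2 of the 12 fits that left out a tumor, and also without the 3 tumors that stood apart, and Zap70 was not called with the replicate block, a fit with the replicate number as a factor. Cd4 gave -0.11 ± 0.28, and 0 of 11 regulatory T cell genes were called, with Foxp3, their defining factor, at 0.06 ± 0.31. Without the 3 tumors that stood apart, all 24 T cell genes were higher (median log2 fold change 1.59), in a fit that leaves 1 Control tumor. The summed T cell list ran from 133.6 to 174.4 CPM with ASC and from 66.5 to 234.6 CPM without, the highest being Control replicate 1.

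Among 23 genes of cytotoxic effectors and NK receptors, 7 were called higher. Klrc1, which encodes the inhibitory receptor NKG2A, measured 0.409, 0.998 and 1.199 CPM without ASC and 3.19, 4.54 and 6.79 CPM with ASC, without overlap (log2 2.48 ± 0.27, adjusted p = 0.000209). Klrk1, the activating receptor NKG2D (log2 1.77), Nkg7, a granule membrane protein (2.12), and Gzmb, the protease granzyme B (1.23), were called as well. Fasl, the death ligand of killer cells, rose too (1.65 ± 0.32), with overlap between the groups, as did Klre1 (1.33) and Cst7 (1.23). Without the 3 tumors that stood apart Fasl and Klre1 were not called, Klre1 was also lost with the replicate block, and leaving out a tumor Klre1 was called in 4 and Cst7 in 6 of 12 fits. The NK marker Ncr1 (0.34, adjusted p = 0.843) was not.

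Of 17 genes of immune checkpoints and tryptophan breakdown, 15 were higher with ASC and 8 were called higher (median log2 fold change 0.96). Cd274, which encodes the ligand PD-L1, measured 5.72, 9.64 and 14.5 CPM without ASC and 26.97, 32.2 and 35.1 CPM with ASC. It rose 3.24-fold, with no overlap (log2 1.70 ± 0.15, adjusted p = 3.2e-05). Pdcd1, encoding its receptor PD-1 on T cells, measured 0.327, 1.003 and 1.64 CPM and 5.57, 7.18 and 9.65 CPM (log2 2.83 ± 0.35, adjusted p = 0.000575). Lag3, a checkpoint receptor that binds MHC class II, measured 1.48, 1.75 and 4.17 CPM and 6.51, 7.897 and 9.08 CPM (log2 1.79 ± 0.26, adjusted p = 0.00213). Neither receptor overlapped between tumors with and without ASC. Ido1, the enzyme that opens tryptophan catabolism, had 0 to 14 counts without ASC and 53 to 274 with ASC (fitted log2 4.27 ± 0.45), and Ido2 followed at 1.99 ± 0.25. Havcr2, the receptor TIM-3 (log2 0.96 ± 0.13), its ligand gene Lgals9, which encodes galectin-9 (0.65 ± 0.10), and Cd160 (1.11 ± 0.23) completed the calls. Cd160 was called in 4 of the 12 fits that left out a tumor, and neither without the 3 tumors that stood apart nor with the replicate block. Ctla4 (1.04, adjusted p = 0.0574) and Tigit (0.78, adjusted p = 0.0639) fell short of the threshold.

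Myeloid genes were mostly higher with ASC, and some were called. Of 22 macrophage and monocyte genes, 19 were higher (median log2 fold change 0.42). At an unadjusted p below 0.05 by edgeR, 12 were higher, against 1443 of all 20818 genes tested. Of the 22, Fcgr1, Fcgr4, C1qb (complement C1q, log2 0.61) and Ly6c1 (1.38) were called. The list median was 0.485 without the 3 tumors that stood apart, a fit with 1 Control tumor. C1qa (0.55 ± 0.07, adjusted p = 0.00134) and C1qc (0.56 ± 0.08, adjusted p = 0.00212) passed the adjusted p but not the fold threshold. Not called were also Adgre1, which encodes F4/80 (0.48 ± 0.14), Csf1r (0.21 ± 0.13) and Cd68 (0.17 ± 0.10). C1qa, C1qb and C1qc gave log2 fold changes of 0.81, 0.83 and 0.81 at 0 ppb iAs, and 0.28, 0.39 and 0.32 at 300 ppb. Their unadjusted p-values in edgeR's interaction test were 0.0041, 0.0291 and 0.0104, and none passed adjustment. Of the 22 genes, 6 had such a p below 0.05, against 13.6% of all genes tested. Aif1, which encodes the macrophage protein IBA1 and stood in no list, was called (log2 0.92 ± 0.12, adjusted p = 0.000828). Fcgr4, an activating receptor for IgG, measured 6.79, 8.62 and 12.1 CPM without ASC and 35.2, 46.5 and 65.8 CPM with ASC. It rose 5.55-fold with no overlap (log2 2.47 ± 0.15, adjusted p = 2.46e-06), and Fcgr1 rose 2.03-fold (adjusted p = 0.000292). The summed macrophage list ran from 3161 to 4441 CPM with ASC and from 3034 to 3641 CPM without, so that these ranges overlapped. Of 16 genes of M1 polarization 4 were called, Slamf8 (2.24), Fpr2, a formyl peptide receptor (1.56), Irf5 (0.60) and Acod1, which makes itaconate (log2 2.71 ± 0.45). Nos2, the inducible nitric oxide synthase, gave 0.73 ± 0.34 (adjusted p = 0.454) and Il1b 0.63 ± 0.22 (adjusted p = 0.258). Of 16 genes of M2 polarization only Tgm2, a crosslinking enzyme, was called (0.78 ± 0.09), with Arg1, the arginase, at 0.17 ± 0.19. Of 17 dendritic cell genes, 12 were higher, with a median log2 fold change of 0.19 and a range of -0.93 to 1.22. Of the 17, 4 were called, namely Bst2 (1.17), Itgax (0.97), Batf3 (0.81) and Irf8. Bst2 and Irf8 stand in an interferon list too. Batf3 was called in 3 of the 12 fits that left out a tumor, and neither without the 3 tumors nor with the replicate block.

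Of the 283 higher genes, 157 stood in none of the 39 lists. Apol6, an apolipoprotein L family member, had the smallest p among them, at 1.51, 2.202 and 4.99 CPM without ASC and 15.6, 17.6 and 22.1 CPM with ASC (log2 2.84 ± 0.19, adjusted p = 4.55e-06). Sectm1a, a secreted and transmembrane protein, rose 3.77-fold, from 1.62, 1.72 and 1.96 CPM to 5.64, 6.801 and 7.53 CPM. The serine protease inhibitors Serpina3f and Serpina3g rose by 3.46 ± 0.26 and 2.81 ± 0.29 on the log2 scale, with the reservation that they are close copies. Ube2l6 (log2 1.52), the conjugating enzyme for ISG15, Trafd1 (0.72) and Rnf213 (0.86) also rose, the last encoding a large ubiquitin ligase. Il15ra (1.38), which presents interleukin 15 to NK and CD8 T cells, and Batf2 (3.01), a transcription factor of activated macrophages, rose too. Ctss (0.96), the cathepsin that trims the class II invariant chain, and Mpeg1 (0.92), a pore-forming protein of phagocytes, were called as well.

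A few further genes outside the lists are listed for their secreted or metabolic products. Fst, which encodes follistatin, a secreted binder of activin and myostatin, measured 9.01, 11.2 and 11.5 CPM in Control, 13.4, 13.6 and 9.09 CPM in As300, 36.01, 23.1 and 34.3 CPM in ASC and 40.4, 32.3 and 42.3 CPM in ASC_As300. Every tumor with ASC lay above every tumor without, and Fst rose 3.07-fold (log2 1.62 ± 0.14, adjusted p = 3.26e-05). Xdh, the xanthine dehydrogenase of purine breakdown, rose 1.91-fold (adjusted p = 3.76e-05), and Hk3, a hexokinase of myeloid cells, 3.14-fold (adjusted p = 0.000145). Slc15a3, a lysosomal transporter of peptides and histidine, Calhm6, a channel-forming protein, and Clec12a, an inhibitory lectin of myeloid cells, rose by 0.91, 2.45 and 1.14 on the log2 scale.

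The 18 genes that fell were spread over varied functions. Clu, which encodes the secreted chaperone clusterin, had the smallest p, at 183, 96.3 and 94.9 CPM in Control, 170.2, 93.6 and 167 CPM in As300, 40.4, 56.8 and 44.8 CPM in ASC and 64.2, 62.00 and 51.8 CPM in ASC_As300. Every tumor with ASC lay below every tumor without, and Clu was 2.53-fold lower (log2 -1.34 ± 0.19, adjusted p = 0.00186). Krt8, a keratin of simple epithelia, measured 337, 62.1 and 89.9 CPM in Control, 91.3, 113 and 92.3 CPM in As300, 26.2, 30.9 and 44.8 CPM in ASC and 31.1, 30.8 and 24.1 CPM in ASC_As300. Control replicate 1 was the highest by far, but the other 5 tumors without ASC also exceeded all 6 with ASC (log2 -2.03 ± 0.34, adjusted p = 0.00632). Its partner Krt18 was at most 1.40 CPM in the other 11 tumors and 19.7 CPM in Control replicate 1, and was not called (-2.26 ± 0.71, adjusted p = 0.188). Krt8 was the only gene called among 17 tested epithelial and prostate tumor genes. Of these 17, 9 were higher, with a median log2 fold change of 0.005 and a range of -2.26 to 2.62. Their list summed to 2930 to 4020 CPM with ASC and 2987 to 3769 CPM without. Mmp9, a secreted gelatinase, measured 13.5, 23.03 and 44.2 CPM without ASC and 9.26, 10.9 and 11.4 CPM with ASC (log2 -1.25 ± 0.21, adjusted p = 0.00519). Its values with ASC were tightly grouped below the lowest tumor without ASC.

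Cacnb1, a calcium channel subunit (-0.60), Ovgp1, an oviductal glycoprotein (-0.72), Atp6v0d2, a proton pump subunit (-1.11), Ptpn3, a tyrosine phosphatase (-0.81), and Fcrls, a scavenger receptor of macrophages (-1.07), completed the 8 lower genes with the smallest p. The remaining calls were Efhd1, Stra6, Gpr183, Glp1r, Serinc2, Fxyd6, Kcnf1, Vtcn1, Gm16325 and Ltbp2, with adjusted p of 0.0117 to 0.0473. Clu, Mmp9, Krt8, Ovgp1, Atp6v0d2, Ptpn3 and Fcrls were called in all 12 fits that left out a tumor, but Ptpn3 and Fcrls were not called without the 3 tumors that stood apart. The 7 of these 18 genes called in that fit were Clu, Cacnb1, Mmp9, Krt8, Ovgp1, Atp6v0d2 and Glp1r. Of the 12 fits that left out a tumor, Gm16325 was called in 1, Vtcn1 in 2, and Kcnf1 and Ltbp2 in 3 each. Gm16325 had at most 20 counts in any tumor, and 0 in all 3 ASC_As300 tumors, so that no fold is given. Vtcn1, which encodes the checkpoint ligand B7-H4, fell from 4.14, 4.999 and 6.05 CPM to 2.08, 2.503 and 3.798 CPM (log2 -0.85 ± 0.19). Mmp9 was the only called gene of the neutrophil list (13 tested). That list, Mmp9 included, summed to 35.8 to 50.5 CPM with ASC and 41.1 to 68.4 CPM without. Yet 9 of its 13 genes were higher with ASC (median log2 fold change 0.27). By edgeR, 4 were higher and 1 was lower at an unadjusted p below 0.05, against 1443 and 825 of all 20818 genes tested. Whether neutrophil content had a part in the Mmp9 values was not tested.

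**Figure D5:**
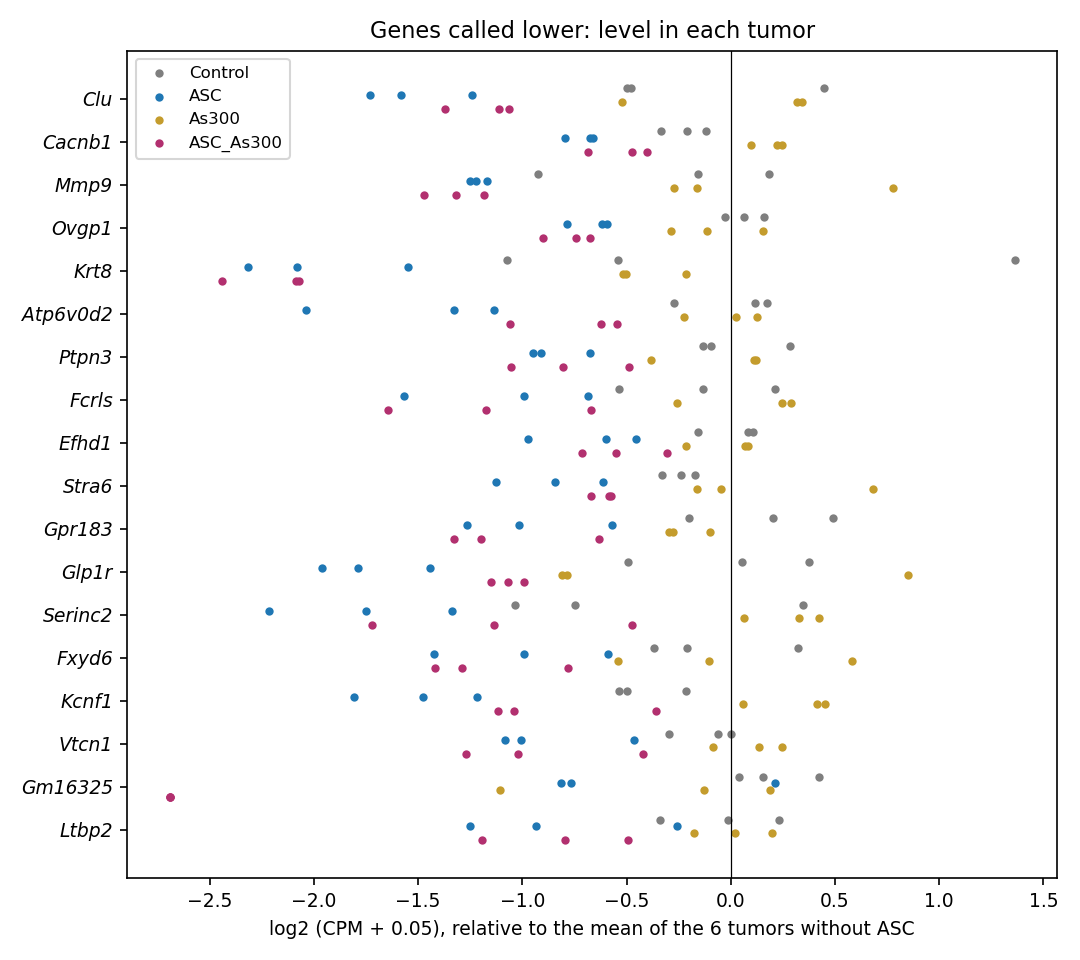
Level of each gene called lower in each of the 12 tumors, as log2 of CPM + 0.05 relative to the mean of the 6 tumors without ASC, colored by group. In 14 of the 18 genes all tumors with ASC lie to the left of all tumors without, and the 3 ASC_As300 tumors of Gm16325 coincide at 0 counts.

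Of 19 adipose stromal markers, the implanted cell type, 1 was called higher (5.26%, against 1.36% of all genes tested). This was Ly6a, the antigen Sca-1 (log2 1.68 ± 0.14, adjusted p = 1.92e-05), which is also an interferon-inducible gene. With 1.36% of all genes called higher, 0 or 1 call in a list of about 20 genes does not set that list apart. The stromal list summed to 1347 to 1507 CPM with ASC and 1180 to 1339 CPM without, and to 1134 to 1293 CPM and 1111 to 1261 CPM once Ly6a was left out, so that the separation rested on Ly6a. Cd34, a surface marker of stromal progenitors and of endothelium, gave 0.36 ± 0.10 (adjusted p = 0.129). Among 20 fibroblast and matrix genes Mmp13, a collagenase, was called (0.96 ± 0.19) but not without the 3 tumors that stood apart, and among 20 factors that ASC are known to secrete 0 were called. Of these, Spp1, which encodes osteopontin, passed the adjusted p but not the fold threshold (-0.55 ± 0.12, adjusted p = 0.0298). None of the 19 adipocyte genes was called, with Pparg, the adipogenic factor, at 0.48 ± 0.26 and the lipogenic factor Srebf1 at 0.14 ± 0.05. Their sum was highest in ASC replicate 2, at 3042 CPM. Proliferation genes differed little, with 0 of 18 called and a median of 0.10, although 17 of the 18 were higher (range -0.01 to 0.26). Among 14 genes of metallothioneins and oxidative stress, 0 were called (median 0.08), as in the lists of endothelial (16 genes, median 0.05), hypoxia (16 genes, -0.07) and immediate early genes (14 genes, -0.03). Of these, 12 of the 14 stress genes and 4 of the 16 hypoxia genes were higher with ASC. All 13 mitochondrially encoded transcripts were lower, by -0.20 to -0.06 on the log2 scale, and 0 were called. Among 18 genes of cell death and the inflammasome, Casp1, the inflammatory caspase (0.96), and Tnfsf10, the death ligand TRAIL (1.82), were called besides Zbp1, and of 14 complement genes Cfb, factor B (1.11), which was called in 6 of the 12 fits that left out a tumor.

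Some lists had large medians and no calls. All 18 skeletal muscle genes were lower with ASC, at a median log2 fold change of -2.43, but all 18 were higher without the 3 tumors that stood apart (median 3.01), with 0 called in either fit. The summed list was 9.90 to 539.9 CPM with ASC and 9.33 to 2860 CPM without, the 2 tumors without ASC named above being the highest. B cell genes had a median of -1.19 in all tumors and 0.50 without those 3, again with 0 of 15 called in either fit. Among 15 plasma cell and immunoglobulin genes 0 were called in all tumors (median 0.33). Their median was 2.13 without the 3, a fit with 1 Control tumor. With all tumors kept, edgeR gave 1443 higher and 825 lower genes among all 20818 tested at an unadjusted p below 0.05. At that p it gave 0 of the 18 muscle genes, 3 lower B cell genes, 1 higher plasma cell gene, and 4 higher and 1 lower regulatory T cell genes. It also gave 4 higher and 5 lower genes secreted by ASC, 1 higher adipocyte gene, 5 higher proliferation genes, 5 lower hypoxia genes and 0 mitochondrial transcripts. DESeq2 called 1 gene higher in each of the plasma cell and regulatory T cell lists, 1 lower in the ASC-secreted list and 0 in the others just named.

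Some genes named by the study lay outside these groups. Tgfb1, which encodes transforming growth factor beta 1, gave -0.01 ± 0.06 and Fgf12, a fibroblast growth factor homologue, 0.12 ± 0.57, while Tmprss2, an androgen-regulated protease of the prostate, had at most 11 counts in any tumor and was not tested.

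The main effect is the average of an ASC effect at 0 ppb iAs and one at 300 ppb iAs, which share no tumor. At 0 ppb, 147 genes were called higher (0.706%) and 3 lower (0.0144%), and at 300 ppb 165 were called higher (0.793%) and 13 lower (0.0624%). Of the 147, 145 (98.6%) were also higher at 300 ppb and 113 (76.9%) were called there. Of the 165, 162 (98.2%) were also higher at 0 ppb and 113 (68.5%) were called there. Over all genes tested, the sign was shared by 45.6%. Few lower genes were called at both levels. Of the 13 called lower at 300 ppb, 4 were also lower at 0 ppb and 1 was called there, and of the 3 called lower at 0 ppb, 3 were lower at 300 ppb and 1 was called. Of the 283 higher genes of the main effect, 113 were called at both iAs levels, 24 at 0 ppb only, 41 at 300 ppb only and 105 at neither.

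For the 283 higher genes, the 2 iAs levels gave a median log2 fold change of 1.13 at 0 ppb and 1.18 at 300 ppb. Gbp2 gave 3.41 ± 0.23 and 3.89 ± 0.24, Irf1 1.49 ± 0.12 and 1.65 ± 0.12, and Ifng 3.86 ± 0.83 and 3.41 ± 0.79. The interaction test, which asks whether the effects differ, called 0 genes by edgeR (smallest adjusted p = 0.309), with 1473 genes at an unadjusted p below 0.05 in the direction of a larger log2 value at 300 ppb and 1363 in the other. DESeq2 called 29 and 145 genes for the interaction, of which 1 was among the 283 and 0 among the 18. Of the 283, 22 (7.77%) had an unadjusted interaction p below 0.05, against 13.6% of all genes. The widest gaps included Cd8a (1.11 ± 0.66 at 0 ppb and 3.29 ± 0.73 at 300 ppb, unadjusted p = 0.0401, with the high Control replicate 1), Ido1 (3.02 ± 0.59 at 0 ppb and 5.53 ± 0.67 at 300 ppb, unadjusted p = 0.0111, adjusted p = 0.309), Apol6 (2.24 and 3.44, unadjusted p = 0.00488) and, in the other direction, Slc15a3 (1.26 and 0.57, unadjusted p = 0.00119), none of which passed adjustment.

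Outside the called genes, Tgfb1 had one of the 5 smallest interaction p-values, with 0.30 ± 0.08 at 0 ppb and -0.32 ± 0.08 at 300 ppb (unadjusted p = 0.000198, adjusted p = 0.309). Its level was 81.2, 73.8 and 84.1 CPM in Control, 88.1, 104 and 104 CPM in ASC, 119, 132 and 118 CPM in As300 and 97.4, 99.8 and 99.3 CPM in ASC_As300, so that the tumors with ASC lay between Control and As300. The main effect of iAs in the same model called 0 genes by edgeR (1564 higher and 1761 lower at an unadjusted p below 0.05) and 30 and 84 by DESeq2. Of the 283 genes that rose with ASC, 43 (15.2%) had an unadjusted iAs p below 0.05, where the counts above are of 20818 genes.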

How the data were processed

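Gene expression was measured by stranded poly(A) RNA-seq (paired-end) in 12 tumors, 3 per group. The submitters' processing notes name cutadapt 1.1.0, HISAT2 2.0, StringTie 1.3.4, DESeq2 and edgeR, and the counting step, genome build and annotation were not given in the sources used here. The deposited file holds whole-number read counts per gene, not normalized by the authors, for 55401 genes. Low counts cluster at 4 (1137 to 1298 genes per tumor, against 618 to 795 at 3 and 380 to 414 at 5), and how this arose was not tested. Depth ran from 39157647 to 55168642 counts per tumor.

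Counts were filtered (filterByExpr), scaled by TMM and fitted with edgeR 4.0.16 in R 4.3.3 by the quasi-likelihood test, with 1 mean per group and 8 residual degrees of freedom. Contrasts were the ASC main effect, the ASC effect at each iAs level, the interaction and the iAs main effect. P-values were adjusted by Benjamini-Hochberg over all genes tested, and a call required an adjusted p below 0.05 and a fold change of at least 1.5. CPM of genes are TMM-scaled, and sums over lists are per total count. Alternatives were DESeq2 1.42.0, other normalization, filters and models, a replicate block, a GC correction, counts divided by 4 and the omission of each tumor. Fits without 3 tumors that stood apart and without the most abundant gene were chosen after seeing the data. Scripts were tested on simulated data.

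Genes were named by rules: those measured or named in the study, the 15 called genes with the smallest p in either direction, up to 4 genes per list, the 20 called genes in no list with the smallest p, and those with the most unlike effects at both iAs levels. Further genes of a list were chosen after their values were seen. The members and lists were chosen with earlier results of these data known. Promoter windows are from RefSeq (GRCm38.p6), matched by symbol for 12904 tested genes. A few items that these rules name are not reported here.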

Additional observations from a re-analysis of the deposited data

How the results depend on the processing

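For the ASC main effect more genes were called higher than lower under each alternative run, with 226 (without ASC_As300 replicate 2) to 404 calls (without Control replicate 1) when a tumor was left out. The lower calls were less stable. DESeq2 called 85, a minimum of 10 counts in every tumor gave 34, no minimum fold change 29, counts divided by 4 gave 28, and leaving out a tumor 11 (without ASC_As300 replicate 3) to 32 (without ASC replicate 2). At 0 ppb iAs, DESeq2 called 373 higher and 77 lower, and the lower count was 11 with the minimum of 10 counts, 7 without a minimum fold change, 9 with counts divided by 4 and 8 with the GC correction. Leaving out a tumor gave 100 to 298 higher and 1 to 57 lower, both highest without ASC replicate 1. At 300 ppb iAs, DESeq2 called 308 higher and 91 lower, and leaving out a tumor gave 92 (without As300 replicate 2) to 231 higher and 1 (without ASC_As300 replicate 1) to 46 lower (without Control replicate 1). For the interaction DESeq2 called 29 and 145, the fit without the 3 tumors that stood apart 1 and 1, and leaving out a tumor 0 to 1 in either direction. The fit without the 3 tumors leaves 1 Control tumor, which is assumed to vary like the others. For iAs DESeq2 called 30 and 84, the fit without the 3 tumors 1 higher, and leaving out a tumor 0 to 14 higher and 0 to 45 lower, both highest without ASC replicate 3. Deviations from the group means correlated at -0.124 to 0.172 between same-numbered tumors of different groups, and at -0.222 to 0.246 between differently numbered ones. With 3 tumors per group, these values cannot decide whether the numbers pair tumors. With the replicate block, 262 of the 283 and 13 of the 18 genes were called again, and 6 genes were lower at 300 ppb iAs. Genes near 0 changed sign: leaving out a tumor gave Tgfb1 -0.0314 to 0.0339, Fgf12 -0.17 to 0.38, Cd4 -0.24 to 0.22 and Foxp3 -0.10 to 0.46 on the log2 scale, and without the 3 tumors Fgf12 was -0.16 and Cd4 0.13. The cause of these changes was not tested.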
